A study of Homo sapiens with 3 samples.

Results

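At day 21 (D21) of organoid culture, 271 of 1946 kept cells carried a hepatic transcript programme inside a tissue grown to resemble the heart. The cells were chosen by their transcripts. AFP, APOA1 and APOA2 together made up at least 1% of their UMIs (unique molecular identifiers, each counting 1 captured mRNA molecule), the cardiac genes TNNT2, MYH6, MYL7 and TTN together stayed under 1%, and the cycling genes MKI67, TOP2A, CENPF, TPX2, NUSAP1 and UBE2C stayed under 8 UMIs per 10000. These hepatic endoderm-like cells were 13.9% of the kept D21 cells (exact Clopper-Pearson 95% interval 12.4% to 15.5%). Their share of D21 cells was 2.68% when cells were kept only with mitochondrial genes under 5% of UMIs. The whole series held 8188 kept cells. The same rule found 0 of 2657 kept cells at D8 and 4 of 3585 at D14.

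The organoids were chambered cardiac organoids (CCOs) grown from H7, a human embryonic stem cell line. In monolayer the cells received CHIR99021, which activates Wnt signalling, and then the Wnt inhibitor IWP-2. They were aggregated on day 7 in Matrigel and cardio-sphere growth medium (CGM), which held thrombin, cardiotrophin-1, EGF, FGF-2, Wnt-3A and EDN1, and were moved on day 14 to RPMI/B27 in a spinner flask. Droplet libraries (10x Genomics 3′ v2) were made on each of the 3 days, 1 library a day, from untreated organoids of this same line and protocol, and whether several organoids were pooled is not given in the sources used here. With 1 library a day there was no test between days or between sets of cells, and intervals cover counting error only. A barcode was kept with more than 2000 and fewer than 7500 detected genes and with mitochondrial genes under 10% of its UMIs. Kept cells shared 14 barcodes between D8 and D14, 9 between D8 and D21 and 10 between D14 and D21, and 2 hepatic cells carried a barcode also kept on an earlier day.

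Hepatic endoderm arises from ventral foregut next to the developing heart, and its hepatoblasts give rise to hepatocytes and to bile duct cells. Hepatoblasts and hepatocytes secrete most plasma proteins, among them albumin and its fetal relative alpha-fetoprotein (AFP), the apolipoproteins that carry lipid, clotting factors, and protease inhibitors such as alpha-1-antitrypsin (SERPINA1). A network of transcription factors, with HNF4A, FOXA factors and CEBPA, maintains the secreted genes.

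Promoters of 4 secreted genes are shown, picked from those with abundant transcripts in the hepatic cells. APOA1, which was also abundant, was not picked. Each is the 150 bases before a RefSeq start in GRCh38.p14, read 5′ to 3′ on the strand of the gene. ALB lies on the plus strand at chr4:73404137-73404286, AFP on the plus strand at chr4:73436071-73436220, SERPINA1 on the minus strand at chr14:94388603-94388752 and APOA2 on the minus strand at chr1:161223629-161223778. Capitals mark GTTAAT, letters of the HNF1 motif, or TGTTTAC, letters of the FOXA motif, each searched on both strands. GTTAAT occurred in this window before 3.52% and TGTTTAC before 1.73% of the 35116 starts in the table. A match describes letters and is not a measured binding site. Only windows with a match were printed, so the windows shown do not measure how often abundant genes hold one.
ALB: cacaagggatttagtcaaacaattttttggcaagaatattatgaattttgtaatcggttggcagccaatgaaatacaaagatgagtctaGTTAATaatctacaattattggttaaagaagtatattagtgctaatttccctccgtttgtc
AFP: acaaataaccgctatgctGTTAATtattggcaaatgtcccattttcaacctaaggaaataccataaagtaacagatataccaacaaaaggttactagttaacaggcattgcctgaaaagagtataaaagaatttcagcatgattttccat
SERPINA1: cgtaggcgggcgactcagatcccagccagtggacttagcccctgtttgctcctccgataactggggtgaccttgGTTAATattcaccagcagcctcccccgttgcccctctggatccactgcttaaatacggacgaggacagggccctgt
APOA2: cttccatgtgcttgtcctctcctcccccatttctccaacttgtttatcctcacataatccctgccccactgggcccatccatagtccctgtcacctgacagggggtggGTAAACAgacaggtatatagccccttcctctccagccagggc
The first 3 hold GTTAAT, and APOA2 holds TGTTTAC on the opposite strand.

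Most of the hepatic cells lay far from the limits of the rule. AFP, APOA1 and APOA2 took a median of 6.48% of UMIs, with a highest cell at 16.4%. Cells just inside the limit stood at 1.04%, 1.14% and 1.22%, and cells just outside at 0.990%, 0.970% and 0.910%. UMIs per cell ran from 8776 to 66930 with a median of 22187, against a median of 13203 in the other 1675 kept D21 cells. The mitochondrial share had a median of 7.91% against 4.82%. The other cells comprised 600 with cardiac genes at 1% or more, 1030 low in both gene sets, 40 high in both, and 5 hepatic cells above the cycling limit, with a median of 14.8 cycling UMIs per 10000.

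The hepatic label was met by genes outside the rule. Levels are given as CPM, the UMIs of a gene per 1000000 UMIs summed over a set of cells. ALB stood at 34791 CPM (34650 to 34932) against 765 in the other D21 cells, and SERPINA1 at 22238 (22126 to 22351) against 547. All 271 cells held UMIs of both. AFP, at 11984 CPM, APOA1, at 24384, and APOA2, at 32776, restate the choice of cells. TTR, the carrier of thyroxine and of retinol-binding protein, stood at 1459 against 59.8 CPM, VIL1, an actin-bundling protein of liver and gut epithelium, at 127 against 4.84, and FOXA2, a pioneer factor of endoderm, at 14.9 against 0.620.

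**Figure D1:**
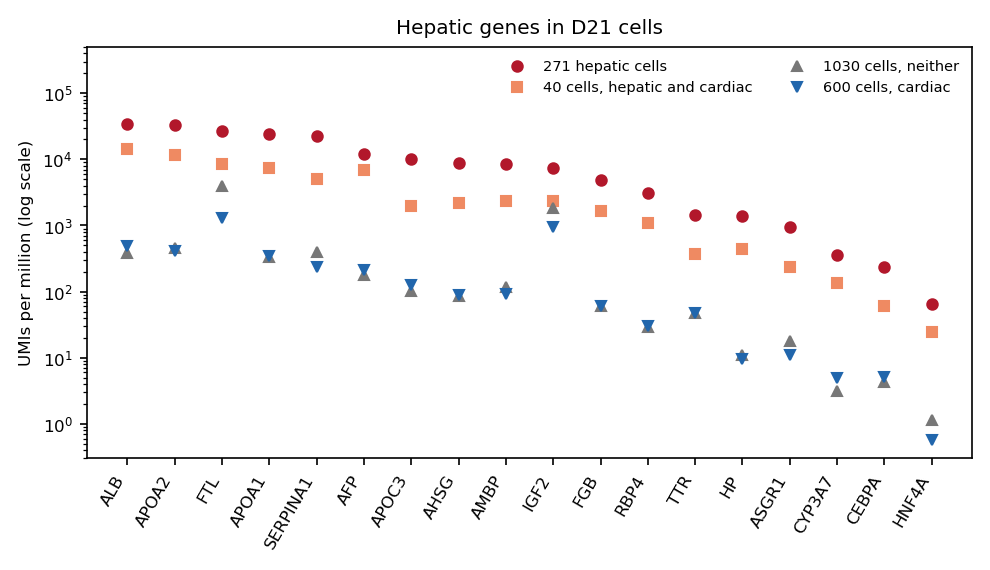
Level of 18 genes in 4 sets of D21 cells, as UMIs per 1000000 summed over the cells of a set, on a log axis. Circles, the 271 hepatic cells, are the highest for each gene, and squares, the 40 cells with both gene sets, come next, for example at 14433 for ALB.

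Hepatic transcripts were also counted in D21 cells outside the hepatic set. ALB stood at 492 CPM in the cardiac-gene cells and at 382 in the cells low in both sets. After thinning each cell to 4000 UMIs, ALB was seen in 96.7% of hepatic cells, and also in 70.7% and 74.2% of these 2 sets, so its share of positive cells separates them little. CEBPA was seen in 55.4% of hepatic cells against 2.33% and 1.84%. HNF4A was seen in 19.9% (67.2% without thinning) against 0.167% and 0.194%. Median depths before thinning were 22187, 13316 and 13199 UMIs. Of the cells low in both sets, 22 under the cycling limit had AFP, APOA1 and APOA2 at 0.5% or more of UMIs.

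Some plasma protein genes kept similar proportions to AFP, a rule gene, in these sets, and others did not. For each AFP UMI there were 2.90 ALB UMIs in the hepatic cells, 2.35 in the cardiac-gene cells and 2.12 in the cells low in both. For APOA1 the values were 2.03, 1.67 and 1.86. TTR was less abundant per AFP UMI in the hepatic cells, at 0.122 against 0.229 and 0.259, and HP more abundant, at 0.114 against 0.0461 and 0.0619. Also more abundant were APOC3 (0.844 against 0.597 and 0.574), AHSG (0.739 against 0.430 and 0.478) and RBP4 (0.260 against 0.143 and 0.163). In the cells high in both sets ALB was at 2.12, APOA1 at 1.08, SERPINA1 at 0.750 and APOC3 at 0.291, with SERPINA1 at 1.86 in the hepatic cells. The part of free RNA in these counts was not tested.

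Of 8992 genes at 10 CPM or more in either set, 976 (10.9%) were at least 2-fold higher and 2928 (32.6%) at least 2-fold lower in the hepatic cells than in the other kept D21 cells, with a median log2 ratio of -0.61. The rule used this contrast, so these counts are background. A gene under 10 CPM in the other cells was compared only where the hepatic cells reached 10 CPM, so it could not count as lower. List counts below share this limit. The other cells included 40 cells high in both sets and 5 cycling hepatic cells, and hepatic transcripts were counted in the rest. This bounds the ratios of hepatic genes from above. The median log2 ratio of the albumin family without AFP was 5.45 here and 13.4 against the D14 cells described below. Genes at least 10-fold higher numbered 385 and took 24.3% of the UMIs of the hepatic cells, and the split depended on scaling. TMM scaling, which adds 0.52 to every log2 ratio, gave 1507 higher and 1601 lower. Log2 ratios below are without that shift. With it DLK1, EGFL7 and DAB2 would lie within 2-fold, PROS1, CEBPB, LIN28B, ACADVL, FDFT1, KRT8 and KRT18 would be at least 2-fold higher, and 11 of 27 gene lists would count more higher genes, some of them newly past 10 CPM.

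The largest ratios among genes at 100 CPM or more belonged to liver genes. Among them HP, haptoglobin, stood at 1370 against 19.4 CPM. ADH1A, an alcohol dehydrogenase, KNG1, kininogen, ORM1, an acute-phase glycoprotein, the fibrinogen chains FGG and FGA, APOC3, which inhibits lipoprotein lipase, the long non-coding RNA HULC, and AHSG, fetuin-A, followed, down to a log2 ratio of 5.74 for AHSG. The smallest ratios were those of the neuropeptide gene TAC1 (2.98 against 204 CPM), the matrix gene MFAP4 (3.72 against 247), the protease inhibitor TFPI2, the Wnt antagonist SFRP1 and the matrix gene POSTN.

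**Figure D2:**
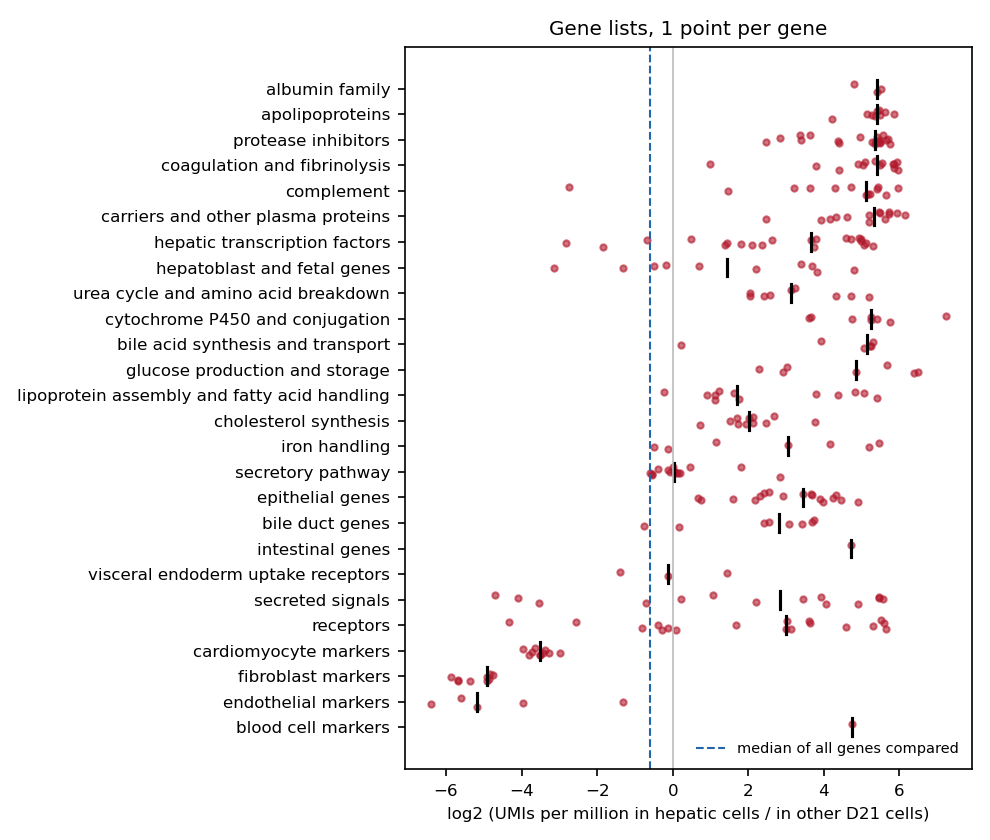
Log2 ratio of CPM in the hepatic cells to CPM in the other kept D21 cells, with 1 point for each gene of a list at 10 CPM or more in either set, a black bar at the median of the list and a dashed line at the median of all genes compared (-0.61). The rule genes AFP, APOA1 and APOA2 are among the points of the albumin, apolipoprotein and fetal lists. The 6 lists of plasma proteins have medians above 5, the secretory pathway has a median of 0.03, and the cardiomyocyte, fibroblast and endothelial lists have medians of -3.51, -4.92 and -5.17.

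Plasma proteins formed the largest block. The 91 genes of the albumin family, apolipoprotein, protease inhibitor, clotting, complement and carrier lists took 20.9% of all UMIs in the hepatic cells and 0.570% in the other D21 cells. The rule genes AFP, APOA1 and APOA2 made up 6.91% of UMIs in the hepatic cells, and the shares without them were 14.0% and 0.391%. List counts leave these 3 genes out. Of the albumin family 2 of 2 genes compared were at least 2-fold higher and 0 lower, with a median log2 ratio of 5.45. GC, the vitamin D-binding protein, stood at 984 CPM, and AFM, afamin, at 2.38. Of the apolipoproteins 7 of 7 genes compared were at least 2-fold higher and 0 lower, with a median log2 ratio of 5.40. APOC3 stood at 10117 CPM and APOC1, a small exchangeable apolipoprotein, at 7754, while APOC4 and APOF had 0 and 1 UMIs.

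Protease inhibitors were uniformly higher. Among them 20 of 20 genes compared were at least 2-fold higher and 0 lower, with a median log2 ratio of 5.35. AHSG stood at 8856 CPM, AMBP, the precursor of alpha-1-microglobulin and bikunin, at 8633, and ITIH1, a heavy chain that joins bikunin, at 1003. SERPINF1, pigment epithelium-derived factor, had the smallest ratio, at 550.1 against 98.5 CPM, and SERPINA3 had 4 UMIs. Of the clotting and fibrinolysis genes 13 of 14 genes compared were at least 2-fold higher and 0 lower, with a median log2 ratio of 5.42. The fibrinogen chains FGB, FGG and FGA stood at 4818, 3200 and 2200 CPM and KNG1 at 559. PROS1, protein S, had the smallest ratio, at 57.1 against 28.6 CPM.

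Complement genes were sparse, and their list took 0.0779% of UMIs. Of these 12 of 13 genes compared were at least 2-fold higher and 1 lower, with a median log2 ratio of 5.12. C3, the central component, stood at 249 CPM, the regulator CFI at 86.3, C1S, a protease of the first component, at 74.8 and C8B, part of the membrane attack complex, at 70.2. The lower gene was MASP1, a protease of the lectin pathway, at 24.4 against 164 CPM. C4A and C4B, near-identical copies, and C9 had at most 2 UMIs. Of the carriers 14 of 14 genes compared were at least 2-fold higher and 0 lower, with a median log2 ratio of 5.33. RBP4, the retinol carrier, stood at 3117 CPM, ORM1 at 2313, vitronectin (VTN) at 2112 and transferrin (TF) at 1491. SEPP1, selenoprotein P, had the smallest ratio, at 392 against 70.5 CPM. Reads of the similar genes ORM1 and ORM2, GSTA1 and GSTA2, and the CYP3A genes may be split between copies.

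Hepatic transcription factors were present at low levels. Of these 17 of 21 genes compared were at least 2-fold higher and 2 lower, with a median log2 ratio of 3.66. XBP1, a driver of secretory capacity, stood at 513 CPM, CEBPA at 236, PROX1 at 113 and HHEX, an early factor of the liver bud, at 100.3. HNF4A stood at 66.1 CPM (60.1 to 72.5). GATA4 and GATA6, shared by heart and endoderm, were the lower genes, at 14.3 against 101 and 12.2 against 43.8 CPM. The xenobiotic receptor NR1I2 had 0 UMIs, which allows up to 3.

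Hepatoblast and fetal genes were mixed. Without AFP, 4 of 9 genes compared were at least 2-fold higher and 2 lower, with a median log2 ratio of 0.69. The growth factor IGF2 stood at 7335 against 1599 CPM, GPC3, a proteoglycan of fetal liver, at 3659 against 261, and the trypsin inhibitor SPINK1 at 629 against 59.3. DLK1, a hepatoblast surface marker, was at 912 against 2273 CPM, and HMGA2, a chromatin protein of embryonic cells, was the lowest at 18.3 against 162.

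Metabolic genes were in place to unequal degrees. Of the urea cycle and amino acid genes 9 of 9 genes compared were at least 2-fold higher and 0 lower, with a median log2 ratio of 3.14. Glutamine synthetase (GLUL) stood at 279 CPM, FAH, of tyrosine breakdown, at 135, arginase (ARG1) at 121 and ASL at 86.3, while OTC, of the urea cycle, was at 2.83. Of the cytochrome P450 and conjugation genes 8 of 8 genes compared were at least 2-fold higher and 0 lower, with a median log2 ratio of 5.25. The list holds 18 genes and took 0.00515% of UMIs in the other cells, so most genes compared reached 10 CPM only in the hepatic cells. GSTA1, a glutathione transferase, stood at 702 CPM, UGT2B4, a glucuronosyltransferase, at 128 and CYP3A5 at 88.8. The fetal enzyme CYP3A7 stood at 364 CPM and its adult counterpart CYP3A4 at 12.5, with 34 of its 84 UMIs in 1 cell. CYP2E1, CYP1A2, CYP2A6 and CYP2B6, drug-metabolizing enzymes of adult liver, had 0 UMIs.

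Bile acid genes were few. From a list of 14, 5 of 6 genes compared were at least 2-fold higher and 0 lower, with a median log2 ratio of 5.14. The list took 0.00356% of UMIs in the other cells. CYP27A1, of the alternative synthesis pathway, stood at 164 CPM, the reductase AKR1D1 at 41.1, BAAT, which conjugates bile acids, at 18.7, and SLC27A5 at 18.6 against 15.9. CYP7A1, the rate-limiting enzyme of the classical pathway, was at 4.02 CPM, and the export pump ABCB11 had 3 UMIs. Of the glucose genes 7 of 7 genes compared, from a list of 10, were at least 2-fold higher and 0 lower, with a median log2 ratio of 4.86. This list took 0.00354% of UMIs in the other cells. The carrier SLC2A2 stood at 183 CPM, PCK2 at 86.3 and glycogen phosphorylase (PYGL), with the smallest ratio, at 67.9 against 13.9, while glucose-6-phosphatase (G6PC) was at 3.87.

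Lipid and iron genes were better represented. Of the lipoprotein assembly and fatty acid genes 10 of 12 genes compared were at least 2-fold higher and 0 lower, with a median log2 ratio of 1.70. The fatty acid-binding protein FABP1 stood at 2088 CPM, hepatic lipase (LIPC) at 327, DGAT2, which makes triglyceride, at 176, and HADHB, of fatty acid oxidation, at 105 against 124. Of the cholesterol synthesis genes 10 of 11 genes compared were at least 2-fold higher and 0 lower, with a median log2 ratio of 2.02. FDPS stood at 574 CPM, HMGCS1 at 291 and FDFT1, with the smallest ratio, at 199 against 120.3. Of the iron genes 5 of 7 genes compared were at least 2-fold higher and 0 lower, with a median log2 ratio of 3.06. Ferritin light chain (FTL) stood at 26437 against 3166 CPM, ferritin heavy chain (FTH1) at 8619 against 3902 and the exporter SLC40A1 at 14.4 against 20.3. The iron hormone HAMP stood at 161 against 3.64 CPM, and among cells with mitochondrial genes under 5% of UMIs its log2 ratio was -0.00422, with 1 UMI in 24 hepatic cells.

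In CPM the secretory machinery stood near the level of the other cells. Of these genes 2 of 15 genes compared were at least 2-fold higher and 0 lower, with a median log2 ratio of 0.03, beside a median of -0.61 over all genes. Over all genes 10.9% were higher and 32.6% lower. TMM scaling, which adds 0.52 to each log2 ratio, left the counts at 2 and 0. The higher genes were XBP1 and SEC11C, a signal peptidase subunit, at 259.7 against 36.4 CPM. The chaperone HSPA5 stood at 336 against 329 CPM, and calreticulin (CALR) had the smallest ratio, at 374 against 567.

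Epithelial and other endoderm lists were checked next. Of the epithelial genes 15 of 17 genes compared were at least 2-fold higher and 0 lower, with a median log2 ratio of 3.45. KRT19 stood at 449.5 against 83.5 CPM, the adhesion molecule EPCAM at 331 against 25.7, and KRT8, with the smallest ratio, at 843 against 528. Of the bile duct genes 6 of 8 genes compared were at least 2-fold higher and 0 lower, with a median log2 ratio of 2.81. Osteopontin (SPP1) stood at 256 CPM and SOX4 at 318 against 536, while CFTR had 3 UMIs. Of the intestinal genes only VIL1 was compared, with a log2 ratio of 4.71, and CDX2 stood at 5.21 CPM. Of the uptake receptors of visceral endoderm, an extraembryonic tissue that also makes AFP, 1 of 3 genes compared were at least 2-fold higher and 1 lower, with a median log2 ratio of -0.12. FCGRT stood at 410.2 against 152 CPM and DAB2 at 16.8 against 44.2, while LRP2 had 2 UMIs. None of the 8 genes in the list for lung, thyroid and pancreas reached 10 CPM, and NKX2-1, NKX6-1, PTF1A and SFTPC had 0 UMIs. Of pancreatic genes outside that list, PRSS1, which encodes trypsinogen, stood at 1489 against 40.3 CPM, and PPY, pancreatic polypeptide, at 58.0 against 9.43.

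Signal and receptor genes differed in both directions. Of the secreted signals 9 of 14 genes compared were at least 2-fold higher and 3 lower, with a median log2 ratio of 2.83. Angiotensinogen (AGT) stood at 715 against 47.0 CPM and the stress hormone GDF15 at 236 against 21.4. INHBA, an activin subunit, was the lowest at 2.23 against 58.4. Of the receptors 11 of 18 genes compared were at least 2-fold higher and 2 lower, with a median log2 ratio of 3.0. ASGR1 and ASGR2, of the asialoglycoprotein receptor, stood at 942 and 333 CPM, ERBB3 at 73.8 and FGFR4 at 73.2. The lower receptors were the endothelin receptor EDNRA, at 2.38 against 47.9 CPM, and LIFR, at 6.70 against 39.7.

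Markers of heart muscle, fibroblasts and endothelium were lower than in the other D21 cells, and the blood marker compared was higher. Of the cardiomyocyte markers 0 of 10 genes compared were at least 2-fold higher and 10 lower, with a median log2 ratio of -3.51, a direction that the cardiac limit partly fixed. Their summed level per hepatic cell ran from 842 to 11903 CPM with a median of 1886, against medians of 2503 in the cells low in both sets and 52430 in the cardiac-gene cells. Of the fibroblast markers 0 of 9 genes compared were at least 2-fold higher and 9 lower, with a median log2 ratio of -4.92, and their summed level had a median of 55.6 CPM and a highest cell at 3067. Of the endothelial markers 0 of 5 genes compared were at least 2-fold higher and 5 lower, with a median log2 ratio of -5.17. Their summed level had a median of 76.5 CPM and a highest cell at 746, against medians of 0 in the cardiac-gene cells and 307 in the cells low in both sets. Among them EGFL7 had a log2 ratio of -1.31 and was seen in 81.2% of hepatic cells without thinning, while the junction gene CDH5 had 0 UMIs. Of the blood markers only CD68, a lysosomal protein, was compared, at 67.0 against 2.48 CPM, and 5 of 8, PTPRC and HBA1 among them, had 0 UMIs. The blood markers together stood at 74.3 CPM against 6.58 in the other D21 cells.

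Albumin was the most widely spread of 12 abundant genes picked for this view of the hepatic cells. ALB ran from 47.7 to 156246 CPM per cell, with a median of 18905, and its 90th percentile was 207 times its 10th. That ratio was 77.7 for IGF2, 40.3 for APOC3, 4.24 for SERPINA1 and 3.75 for FTL. It was 8.92 for AFP, whose spread the rule limits from below. HP and PRSS1, not among the 12, had a 10th percentile of 0 CPM, which gives no such ratio. In 62 hepatic cells ALB was no higher than the 99th percentile of the cells low in both sets (2311 CPM). Set against their own 99th percentiles, the counts were 79 cells for HP, 25 for APOC3, 19 for AMBP, 17 for FGB and 14 for SERPINA1. Among the cells low in both sets the highest SERPINA1 was 27228 CPM. Whether cells with hepatic transcripts of their own set these percentiles was not tested.

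Other genes were followed along this range of ALB. AFP is a rule gene, so its level in cells low in ALB is conditioned by the choice of cells. In the 68 cells with the lowest ALB, up to 3213 CPM, the median AFP was 10761 CPM. In the 68 cells with the highest ALB, from 58184 CPM, it was 9090. Between the same cells the median of APOC3 went from 1731 to 13804 CPM, of HP from 63.5 to 1132 and of KRT19 from 370.5 to 95.4, with median depths of 20443 and 22881 UMIs.

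Correlations across the 271 cells, which share 1 library and were chosen by AFP, are descriptions. On thinned log counts, ALB had a Pearson correlation of -0.16 with AFP. Among 1051 genes at 100 CPM or more, ALB correlated most with APOC3 (0.56), AMBP (0.55), ORM1 (0.54), RBP4 (0.52) and ORM2 (0.51). AFP correlated most with APOA1 (0.35), TF (0.31), GPC3 (0.30), the peroxiredoxin PRDX2 (0.30) and the ubiquitin gene UBB (0.26).

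**Figure D3:**
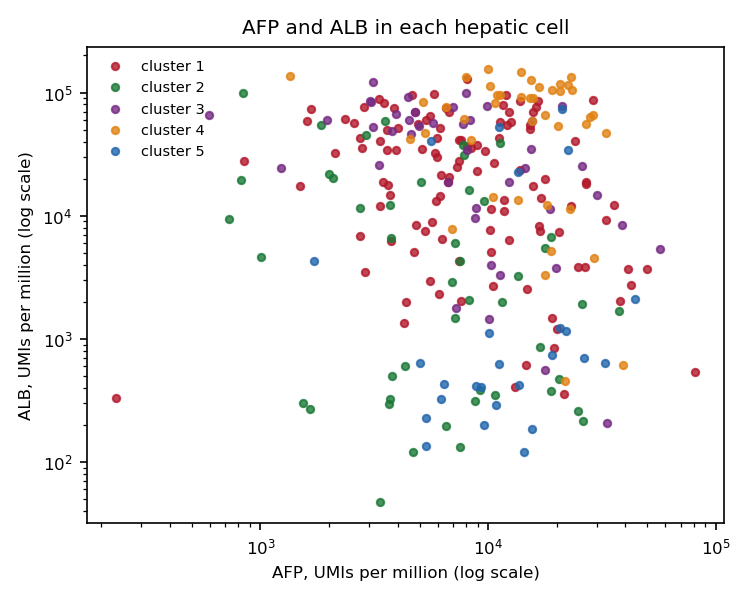
AFP against ALB in each of the 271 hepatic cells, as UMIs per 1000000 on log axes, coloured by cluster. Low-ALB cells span much of the AFP range, which the choice of cells conditions, and of the 68 cells lowest in ALB, 25 are in cluster 2 and 20 in cluster 5.

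Clustering of the thinned cells gave 5 groups of 114, 47, 42, 42 and 26 cells, described by their leading genes, which are not findings. Cluster 1 was led by C19orf80, a secreted regulator of lipid metabolism, ADH4, the fatty acid enzymes SCD (1674 against 813 CPM in the other hepatic cells) and FASN, and MBNL3. Cluster 3 was led by GSTA2, S100P, SDS, SLC25A25 and AKR1C2, with S100P seen in 9 of 42 cells. The leading genes of cluster 4 included APOH, SMYD3, GSTA1 and CPS1, and its ALB stood at 73982 against 27822 CPM. Cluster 5 was led by PPY, FABP5, TM4SF4, CCNG1 and SNHG7. All 390 PPY UMIs in the hepatic cells came from 4 cells, 264 of them from 1. ALB stood at 8204 CPM and HP at 94.4 in cluster 5, with IGF2 at 15581 and AFP at 14029.

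Cluster 2 was lowest, together with cluster 5, in all 6 plasma protein lists, and the highest in bile duct and epithelial genes. Only the 13 rule genes were left out of the clustering. Other genes of these lists could shape the clusters, so these levels describe the grouping. Cluster 2 was led by the trefoil factor TFF1, galanin (GAL), PRSS23, the calcium-binding protein S100A6 and TM4SF1. Ranks 7 to 9 were TAGLN (321 against 9.88 CPM in the other hepatic cells), VCAN (386 against 15.5) and VIM (853 against 43.5). VIM was seen in 39 of the 47 cells. KRT19 stood at 1551 CPM, SPINK1 at 1861, SPP1 at 1107, KRT7, a keratin of duct cells, at 79.9, and ALB at 12581. Bile duct genes took 0.428% of its UMIs and 0.0512% to 0.131% in the other clusters. Cholesterol synthesis genes took 0.0894% in cluster 2 and 0.0826% in cluster 5, against 0.235% to 0.282% in the others.

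Part of cluster 2 rested on few cells. S100A6 was seen in 23 of its 47 cells and TFF1 in 12, and 97 of 162 TFF1 UMIs lay in 1 cell. SPP1 was seen in 23 of these cells, with 518 of its 1386 UMIs in 1, without which it stood at 706 CPM. Without the cell highest in S100A6 that gene went from 1328 to 866 CPM. The intestinal factor CDX2 was seen in 11 hepatic cells, 9 of them in cluster 2. Fibroblast markers took 0.0324% of its UMIs against 0.00611% to 0.0105% elsewhere, and 5 of its cells were in the top 5% of D21 doublet scores, against 7 of all hepatic cells. Their part in the cluster was not tested. At a finer resolution of 1.0 the cluster highest in KRT19 held 21 cells, all among these 47, and at 0.25 it held 42, 25 of them shared.

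**Figure D4:**
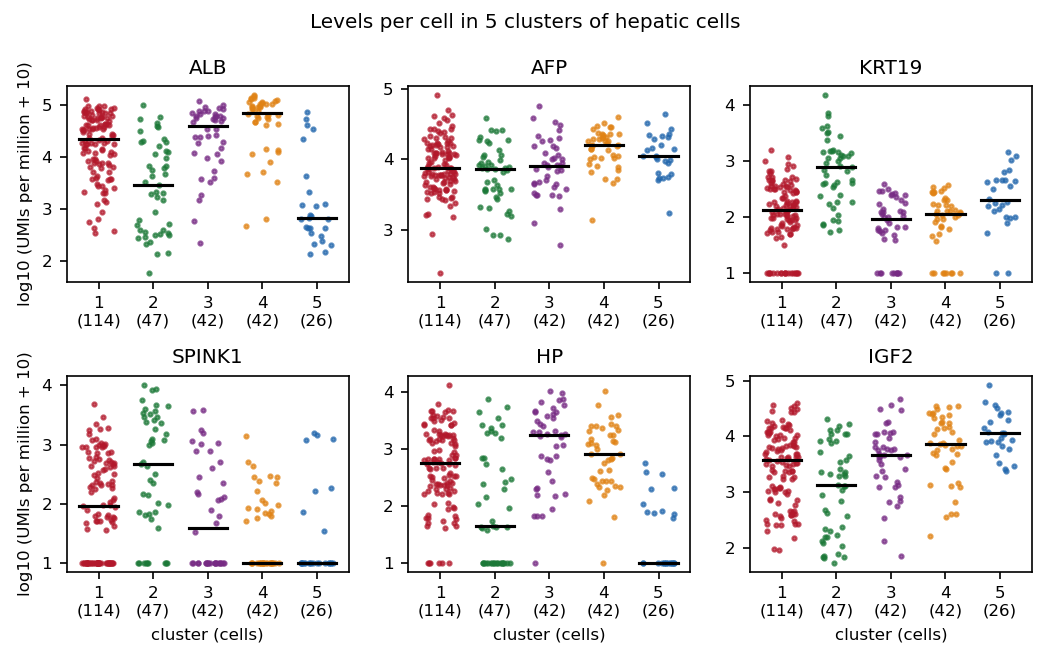
Level of 6 genes per cell in the 5 clusters of hepatic cells, as log10 of UMIs per 1000000 plus 10, with 1 point per cell and a bar at the median. ALB is lowest in clusters 2 and 5 and highest in cluster 4, AFP overlaps widely between clusters, and KRT19 and SPINK1 have their highest medians in cluster 2.

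The mitochondrial share moved with these levels. In the 24 hepatic cells with mitochondrial genes under 5% of UMIs, 13 of which were in cluster 2, KRT19 stood at 2456 CPM, S100A6 at 1875, SERPINA1 at 9188 and HAMP at 1.82. In the other 247 these genes stood at 271, 135, 23401 and 175 CPM. The part of the mitochondrial share in these levels was not tested.

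For a view of earlier endoderm, kept D8 and D14 cells with at least 2 EPCAM UMIs and 1 FOXA2 UMI, under the same cardiac and cycling limits, were taken. There were 153 at D8 and 139 at D14. At D21 the gate held 79 cells, of which 70 were among the 271 hepatic cells. EPCAM and FOXA2 chose the earlier cells, so their differences are fixed by the gate, and the list counts against D14 leave out both of them and AFP, APOA1 and APOA2. Day and library cannot be told apart, and no lineage was traced. The median mitochondrial share was 1.96% in the D14 cells and 7.91% in the hepatic cells, and its part in these differences was not tested. Of 8840 genes, 1031 (11.7%) were at least 2-fold higher and 2783 (31.5%) at least 2-fold lower in the hepatic cells than in the D14 cells, with a median log2 ratio of -0.53.

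Genes of plasma proteins and of lipid handling led this comparison. ALB had 1 UMI in all D14 cells, and FABP1, HP and the hepatokine FGL1 had 0. With a floor of 3 UMIs over the D14 set, these 3 were at least 2294-fold, 1506-fold and 1386-fold higher in the hepatic cells. APOC3 stood at 2.12 CPM at D14 and 10117 in the hepatic cells. Some hepatic genes were already present, with TTR at 669 CPM at D8, 755 at D14 and 1459 in the hepatic cells, and SERPINA1 at 15.3, 229 and 22238. APOA2 stood at 376 CPM at D8 and 584 at D14, and the rule set a lower limit on its D21 sum with AFP and APOA1. At D14, SERPINA1 was seen in 19 and APOA2 in 52 of 139 cells, 2 of which met the hepatic rule, and without these they stood at 107 and 405 CPM. At least 2-fold higher than at D14 were 2 of 2 albumin family genes, 7 of 7 apolipoproteins, 20 of 20 protease inhibitors, 14 of 14 clotting genes, 12 of 13 complement genes and 13 of 14 carriers, with none lower.

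Metabolic genes were also higher than at D14. Among genes compared, this held for 8 of 9 urea cycle and amino acid genes and 8 of 8 P450 and conjugation genes. It also held for 5 of 6 bile acid genes and 7 of 7 glucose genes. For lipid, cholesterol and iron genes the counts were 11 of 12, 11 of 11 and 4 of 7, again with none lower in any of these lists. The P450, bile acid and glucose lists hold 18, 14 and 10 genes. They took 0.00218%, 0.00494% and 0.00346% of UMIs at D14, so few of their genes could reach 10 CPM there. Of the transcription factors 12 of 20 were higher and 1 lower. CEBPA stood at 10.6 CPM at D14 and 236 in the hepatic cells, HNF4A at 5.76 and 66.1, and HHEX at 260.3 and 100.3. Of the secretory pathway genes 2 of 15 were higher and 0 lower.

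Epithelial genes showed no such excess of higher genes. Of these 1 of 16 were higher and 6 lower, with a median log2 ratio of -0.78. Over all genes compared with D14, 11.7% were higher and 31.5% lower, with a median of -0.53, so the epithelial list lies near that share. Of the bile duct genes 2 of 8 were higher and 4 lower. In the 70 hepatic cells that met the same EPCAM and FOXA2 gate, 1 of 16 epithelial genes were higher and 6 lower, and KRT19 stood at 352 CPM. KRT19 stood at 1843 CPM at D8, 2061 at D14 and 449.5 in the hepatic cells, SOX4 at 1876 at D14 and 318, and CLDN6, a claudin of embryonic epithelium, at 390.4 and 60.4. The smallest ratios were those of the neuropeptides NPY and SST, the microtubule protein TPPP3, the transcriptional repressor RIPPLY3, and CXCR4, the chemokine receptor of definitive endoderm. NPY stood at 841 CPM at D14 and had 0 UMIs in the hepatic cells, at least 1885-fold lower, and CXCR4 stood at 113 and 0.149 CPM. Of the fetal genes 3 of 8 were higher and 3 lower, of the secreted signals 7 of 14 were higher and 6 lower, and of the receptors 8 of 18 were higher and 3 lower. Of the cardiomyocyte markers 7 of 10 were higher and 0 lower, with summed levels of 837 CPM at D14 and 1933 in the hepatic cells. In the D21 cells low in both hepatic and cardiac genes the summed level was 2809 CPM, so it was not particular to the hepatic cells.

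**Figure D5:**
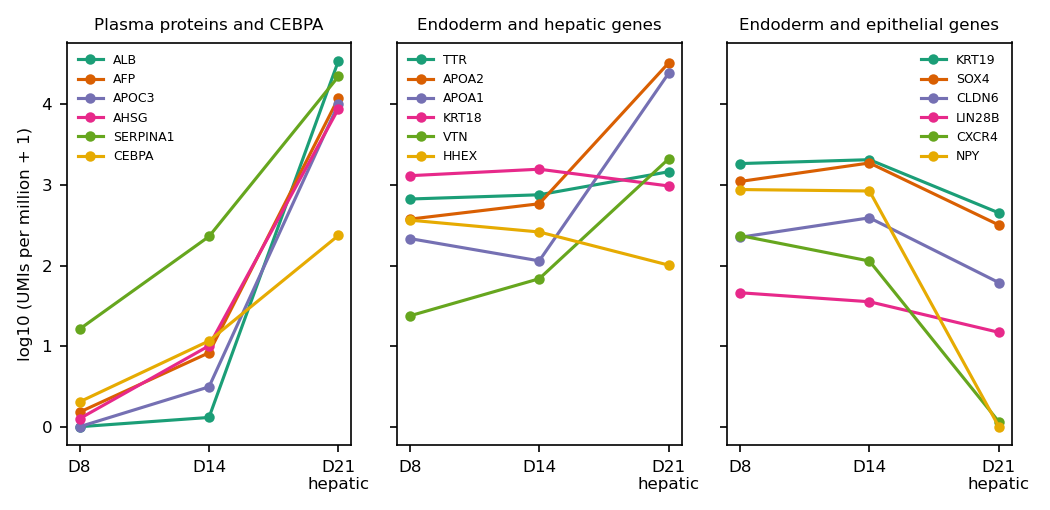
Level of 18 genes in the D8 and D14 cells with EPCAM and FOXA2 UMIs and in the D21 hepatic cells, as log10 of UMIs per 1000000 plus 1, with a line for each gene. ALB, AFP and APOC3 lie below 1 on this scale at D8 and D14 and above 4 at D21. The rule set a lower limit on the sum of AFP, APOA1 and APOA2 at D21. TTR and KRT18 move little, and CXCR4 and NPY are near 0 at D21.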

How the data were processed

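The authors deposited 1 merged table of raw UMI counts for the 3 days, with 32738 genes and 17327 barcodes. The submitters' processing notes name Cell Ranger, Seurat 3.2.1 and hg19. The suffix of a barcode gave its day. Kept cells had median depths of 15316 (D8), 12282 (D14) and 14106 (D21) UMIs. Counts were summed over cells and scaled to CPM, with exact Poisson intervals. Genes at 10 CPM or more in either set were compared at 2-fold, and the scripts were tested on simulated data. Clusters used cells thinned to 4000 UMIs, 1000 variable genes without the 13 rule genes, 10 components, 15 neighbours and Leiden resolution 0.5 (scanpy 1.11.5, leidenalg 0.10.2). Doublets were left in. Scrublet called 7 of 1946 D21 cells, under 0.5%, so only its scores were used. TMM factors came from edgeR 4.0.16. Alternatives changed the limits of the rule, scaling, the filter on low genes, doublets and clustering.

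The cells and 27 gene lists were chosen with earlier results of these data known. Genes named are the markers with TTR, VIL1 and FOXA2, up to 4 of the most abundant higher genes of a list, its smallest ratio and members near 0, the 10 largest and 5 smallest ratios, the 5 genes most correlated with AFP and ALB, the 5 leading genes of each cluster, and the 5 most extreme ratios each way against D14. Others were named after their values were seen. Some named by the rule are not reported here.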

Additional observations from a re-analysis of the deposited data

Results flagged for a closer look

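Hepatic transcripts were also present in D21 barcodes that the filters left out. Of 1982 D21 barcodes with enough genes but with mitochondrial genes at 10% or more, 158 (7.97%) met the rest of the rule, with a median of 20410 UMIs and a median mitochondrial share of 11.4%. ALB stood at 26186 CPM in them, APOA2 at 34025, TTR at 1537 and KRT19 at 194, beside 34791, 32776, 1459 and 449.5 CPM in the kept hepatic cells.

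Of 5221 D21 barcodes with 2000 or fewer detected genes, 539 (10.3%) met the rest of the rule, with a median of 1349 UMIs and 610 genes. ALB stood at 32638 CPM and AFP at 15534, and the median share of AFP, APOA1 and APOA2 was 4.53% against 0.642% over all such barcodes. Whether they hold cells or free RNA was not tested.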

How the results depend on the processing

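The share of hepatic cells, 13.9%, was 2.68% with a mitochondrial limit of 5% and 11.7% with one of 20%, and the cause was not tested. Genes at least 2-fold higher and lower, 976 and 2928, numbered 1507 and 1601 with TMM scaling and 1433 and 1389 with median-of-ratios scaling, which shift every ratio upward. With no filter on low genes they numbered 5620 and 5917, and at 50 CPM or more, with fewer genes compared, 424 and 893. The share of hepatic cells in the cluster highest in KRT19, 17.3%, was 7.75% at resolution 1.0. Of 486 list counts under 18 alternatives, 464 stayed within 1.5 times. Of 504 ratios of 28 genes, 272 stayed within their counting interval, 231 moved outside it and 37 moved by over 1.5 times. The 2-fold call of 2 genes changed, DLK1 under both scalings and the 20% limit, and HAMP at the 5% limit, and 1 ratio changed sign: the log2 ratio of HAMP, 5.46, was -0.00422 at the 5% limit, where the hepatic cells number 24. Leaving rule genes or mitochondrial genes out of the totals, or hepatic cells with shared barcodes, leaving rule genes out of the lists, and the other limits on the D14 comparison were alternatives added after the data were seen. No paired analysis was possible because each day has 1 library. At these depths, 0 UMIs of a gene do not show its absence.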
